A study of Mus musculus with 2 samples.

Results

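The genes described here are the D and E cyclins, the kinases they activate and a pair of inhibitors of those kinases: Ccnd1, Ccnd2, Ccnd3, Ccne1, Ccne2, Cdk4, Cdk6, Cdk2, Cdkn1a and Cdkn1b. They were chosen by symbol, and each of the 10 names matched 1 of the 22216 gene rows of the deposited table. Whole spleen of mice of genotype NOD.g7 was compared by RNA sequencing with that of mice of genotype NOD.L7, the non-obese diabetic (NOD) mouse being an inbred strain that develops autoimmune diabetes. Each group was 1 library, made from the pooled spleens of 3 mice, and no treatment is given in the labels. The labels state neither age nor sex, nor what g7 and L7 stand for, and NOD.L7 mice appear as NOD.Lc7 in the title of the series. Columns of the table are headed NOD and NOD.LC7, so which column holds which genotype was inferred from that title, and every direction given here rests on it.

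D-type cyclins carry growth signals into the cell cycle. They are made when a cell is stimulated, bind CDK4 or CDK6, and the active kinases phosphorylate the retinoblastoma protein, which then lets go of E2F transcription factors. E2F turns on the E cyclins, which activate CDK2 and carry the cell into S phase, while the inhibitors p21 (Cdkn1a) and p27 (Cdkn1b) bind these complexes. Resting lymphocytes, which make up most of the spleen, hold high p27, and lymphocytes use mainly cyclins D2 and D3, whereas cyclin D1 is best known from other cell types.

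The D cyclins touch the retinoblastoma protein through a short element, leucine, any residue, cysteine, any residue, glutamate, near their start. The first 60 coding bases of each gene, from GENCODE M21 (mouse build GRCm38), are shown because the members share this element but spell the sequence around it differently, which bears on whether reads can be told apart. Capitals mark the codons of the element, which are codons 5 to 9 in Ccnd1 and codons 3 to 7 in Ccnd2 and Ccnd3.
Ccnd1: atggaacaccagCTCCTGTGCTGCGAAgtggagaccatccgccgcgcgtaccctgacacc
Ccnd2: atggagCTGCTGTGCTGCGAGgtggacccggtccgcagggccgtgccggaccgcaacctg
Ccnd3: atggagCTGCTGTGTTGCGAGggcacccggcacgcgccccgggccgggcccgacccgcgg
Over whole coding sequences, Ccnd1 was 66.1% identical to Ccnd2 and 61.8% to Ccnd3, and Ccnd2 was 65.9% identical to Ccnd3. The longest run of bases shared by any of these pairs of transcripts was 20, between Ccnd1 and Ccnd2. No 50-base window was thus common to any 2 of the D cyclins.

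Values are RPKM, which divide reads by the length of the gene and the size of the library, so that levels of different genes can be compared. A total of 11141 genes reached an RPKM of 1 in either library and were kept, among them all 10 members. The spacing of the deposited values showed that they rest on 9.13 Gb of mapped sequence for NOD.g7 and 12.1 Gb for NOD.L7. With 1 library per genotype the spread between mice is unknown, so no test was possible, and each difference is one between these 2 libraries. The 95% counting intervals given with folds are exact binomial (Clopper-Pearson) intervals of approximate fragment numbers and cover counting error only. Log2 ratios are log2(RPKM + 1) of NOD.L7 less that of NOD.g7, a scale that understates differences of low genes, and the size rule asked for a log2 ratio at or beyond 1 in either direction. Where a pair of values is given, NOD.g7 comes first and NOD.L7 second, and folds are NOD.L7 over NOD.g7 unless said otherwise. In whole spleen, fewer cells of a type and less RNA per cell cannot be told apart.

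Cyclin D1 was the member that differed most, at 2.40 times its NOD.g7 level in NOD.L7. The other D cyclins were moderately higher and both E cyclins moderately lower, Ccne2 at an uncertain level close to the minimum. Cdk4, Cdk2 and p27 were nearly level between the libraries, and p21 was higher at a low level. Of the 10 members, 7 were higher in NOD.L7 and 3 lower, beside 56.2% of all kept genes higher. Ccnd1 was the 1 member past the size rule. Of all kept genes 0.709% passed it, 0.386% upward and 0.323% downward. With Cdkn1a, 2 members had an absolute log2 ratio of at least 0.5, which 4.1% of kept genes reached. The members were chosen with these values known, so nothing is read from these shares. The median log2 ratio of the members was 0.16, against 0.02 for all kept genes. An absolute log2 ratio under 0.3 was found in 8 of the 10, beside 90.2% of all kept genes.

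**Figure D1:**
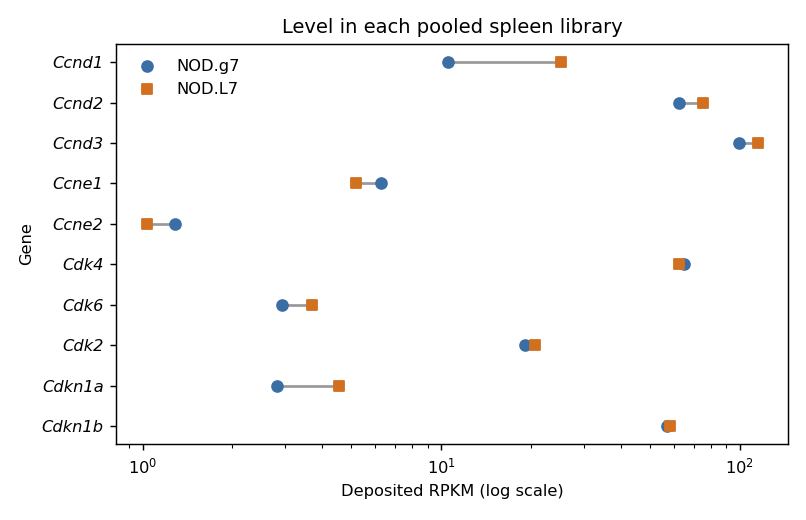
Deposited RPKM (log axis) of the 10 genes in the NOD.g7 library (circles) and the NOD.L7 library (squares), 1 value per library, joined by a line. The widest gap is that of Ccnd1, from 10.5 to 25.3, and the smallest on this axis is that of Cdkn1b, at 57.1 and 58.4.

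Ccnd1 (chromosome 7, 152115836 to 152125830 in mm9, the coordinates of the table) encodes cyclin D1, the D cyclin induced by many growth factor and adhesion signals. Its RPKM was 10.5 in NOD.g7 against 25.3 in NOD.L7. NOD.L7 was thus 2.40-fold higher (interval 2.27 to 2.53), on about 1799 and 5710 fragments, at a log2 ratio of 1.19. The interval lay well away from a fold of 1. Of the 11141 kept genes, 19 had a higher log2 ratio.

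Ccnd2 (chromosome 6, 127075727 to 127101066) encodes cyclin D2, a D cyclin of B and T cells induced on activation. It was at 62.7 in NOD.g7 against 75.5 in NOD.L7, 1.20-fold higher (interval 1.18 to 1.23). Ccnd3 (chromosome 17, 47642000 to 47736279) encodes cyclin D3, used by developing lymphocytes and by germinal centre B cells. It was the most abundant member in both libraries, at 99.4 and 115, 1.15-fold higher in NOD.L7 (interval 1.13 to 1.19). Log2 ratios as far from 0 as that of Ccnd2 were found in 12.4% of kept genes, and as far as that of Ccnd3 in 18%.

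The summed RPKM of the D cyclins was 173 in NOD.g7 against 216 in NOD.L7, a fold of 1.25. The makeup of that sum shifted towards cyclin D1. Ccnd1 made up 6.1% of it in NOD.g7 against 11.7% in NOD.L7, Ccnd2 36.3% and 35%, and Ccnd3 57.6% and 53.3%. Although the least abundant of the D cyclins, Ccnd1 thus supplied 34.3% of the summed difference, with 29.8% from Ccnd2 and 35.9% from Ccnd3. The level of Ccnd3 was 9.43 times that of Ccnd1 in NOD.g7 against 4.55 times in NOD.L7, while the ratio of Ccnd3 to Ccnd2 was 1.59 and 1.52.

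The E cyclins, which open S phase with CDK2, lay in the other direction. Ccne1 (chromosome 7, 38883003 to 38892509), the gene of cyclin E1, was at 6.29 in NOD.g7 against 5.19 in NOD.L7, 1.21-fold lower in NOD.L7 (fold 0.825, interval 0.735 to 0.925). Ccne2 (chromosome 4, 11118501 to 11131926), the gene of cyclin E2, was the lowest member, at 1.29 and 1.03, a fold of 0.802 (interval 0.65 to 0.99). Ccne2 lies just above the minimum level in both libraries, on about 177 and 188 fragments, and its interval included 1 when 400 rather than 200 bases were taken per fragment (0.597 to 1.09). The summed RPKM of both genes was 7.58 and 6.22, and Ccne1 kept a similar share of it, 83% and 83.4%. Log2 ratios as far from 0 as that of Ccne1 were found in 14.7% of kept genes, and as far as that of Ccne2 in 23.5%.

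**Figure D2:**
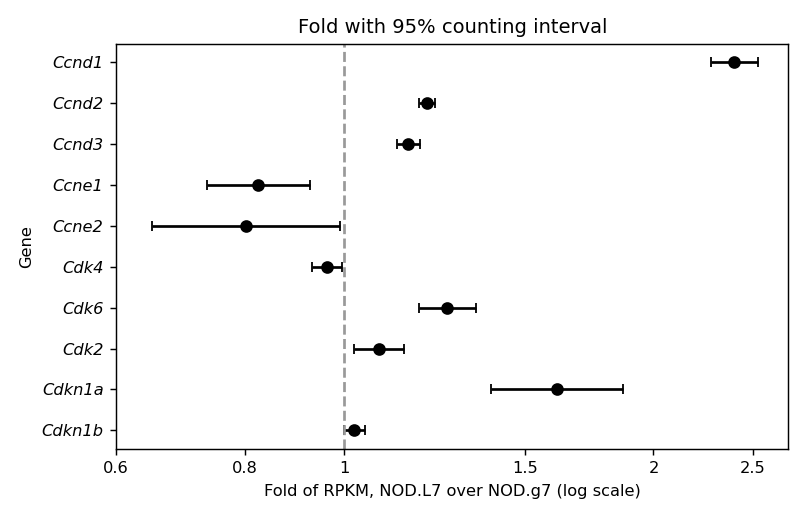
Fold of RPKM, NOD.L7 over NOD.g7 (log axis), for each gene, with bars for the 95% counting interval, which leaves out variation between mice. Ccnd1 lies at 2.40 and Cdkn1a at 1.61, both E cyclins lie under 1, and the interval of Cdkn1b includes 1.

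Of the kinases, Cdk4 (chromosome 10, 126500659 to 126504338), the usual partner of D cyclins, was at 64.8 in NOD.g7 against 62.3 in NOD.L7. Its fold was 0.962 (counting interval 0.93 to 0.995). Cdk6 (chromosome 5, 3344312 to 3522225), the second partner of D cyclins and a kinase prominent in blood cells, was much lower, at 2.93 and 3.70, and 1.26-fold higher in NOD.L7 (interval 1.18 to 1.34). Cdk4 was thus at 22.1 times the level of Cdk6 in NOD.g7 against 16.9 times in NOD.L7. The summed RPKM of these kinases was 67.7 and 66, a fold of 0.975, beside 1.25 for the D cyclins. Cdk2 (chromosome 10, 128134995 to 128142107), the partner of E cyclins, was at 19.1 and 20.7, a fold of 1.08 (counting interval 1.02 to 1.14). The intervals of Cdk4 and Cdk2 included 1 at 400 bases per fragment, and log2 ratios as far from 0 were found in 63.1% and 39.9% of kept genes. For Cdk6 that share was 13.1%.

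Of the inhibitors, Cdkn1a (chromosome 17, 29227931 to 29237667) encodes p21, a target of the p53 tumour suppressor. It was at 2.82 in NOD.g7 against 4.54 in NOD.L7, 1.61-fold higher (interval 1.39 to 1.87), with a log2 ratio of 0.54. It was the member next furthest from 0 after Ccnd1, and 3.55% of kept genes lay as far. Cdkn1b (chromosome 6, 134870419 to 134875543) encodes p27, which holds resting lymphocytes out of the cycle. It was at 57.1 and 58.4, a fold of 1.02 whose counting interval, 0.999 to 1.05, included 1. Cdkn1b stood at 20.3 times the level of Cdkn1a in NOD.g7 against 12.9 times in NOD.L7.

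In NOD.g7 the order of the levels was Ccnd3, Cdk4, Ccnd2, Cdkn1b, Cdk2, Ccnd1, Ccne1, Cdk6, Cdkn1a and Ccne2. The order in NOD.L7 differed at 3 places, with Ccnd2 above Cdk4, Ccnd1 above Cdk2 and Cdkn1a above Cdk6. Neighbours in this order, such as Cdk4 and Ccnd2 in NOD.g7 at 64.8 and 62.7, or Cdk6 and Cdkn1a at 2.93 and 2.82, have no measured spread between mice, so their order within a library is not established.

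**Figure D3:**
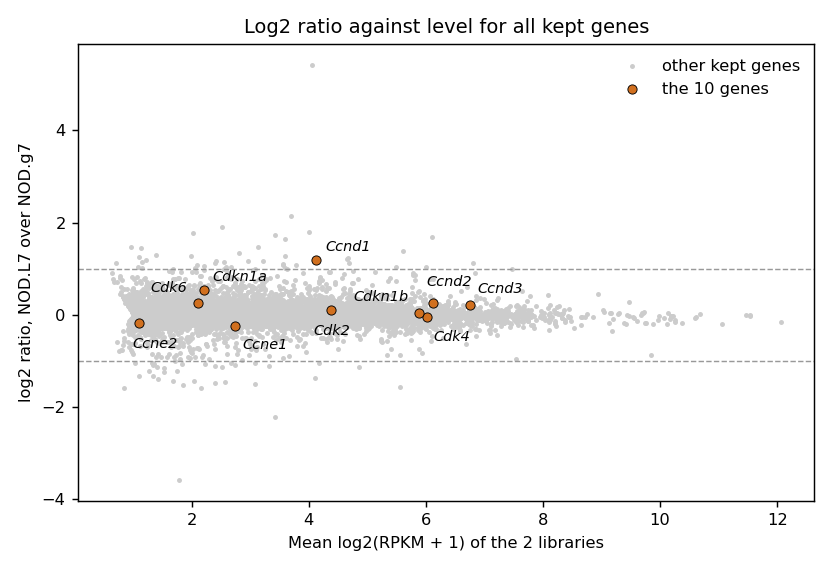
Log2 ratio (NOD.L7 over NOD.g7) against the mean log2(RPKM + 1) of both libraries for the 11141 kept genes, 1 point per gene, with the 10 genes marked and dashed lines at the size rule of 1 and -1. Ccnd1, at 1.19, is the 1 marked gene beyond a dashed line, and 8 of the others lie within 0.3 of 0.

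Reads of some members can be claimed by an overlapping gene, since it is not given in the sources used here whether the counting used strand. In GENCODE M21, 27.2% of the 50-base windows of the Ccnd1 transcript also occurred, on either strand, in transcripts of the neighbouring gene Oraov1 (listed there as LTO1). In the deposited table the rows of Ccnd1 and Oraov1 are 8.79 kb apart and do not overlap, and Oraov1 was at 10.3 in NOD.g7 against 10.4 in NOD.L7. The Ccne2 row overlaps that of its neighbour Ints8 by 5622 bases. Ints8 was at 18.6 and 20, far above Ccne2, so the level of Ccne2 is uncertain. Of the windows of Cdk4, 29.5% occurred in 67 other genes, chief among them Tspan31 (20.7 and 24.8), whose row begins next to it, and Ccnd3 shared 14.7% with Bysl (8.80 and 8.03) and 6.93% with the processed pseudogene Ccnd3-ps. Windows of Ccnd2 (5.17%) and Cdkn1a (10.5%) occurred in those of Gm43126 and AC167363.2. Of the windows of Cdk6, 1.49% occurred in 424 other genes. Windows of Ccne1, Cdk2 and Cdkn1b occurred in transcripts of no other gene.

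The members lie on 6 chromosomes, and 2 of them, Ccnd1 and Ccne1, lie on chromosome 7, far apart. Of the 6 kept genes nearest to Ccnd1, 5 before and 1 after, none passed the size rule. Their log2 ratios ran from -0.20 to 0.25. Few genes passed anywhere, 0.709% of all kept genes and 1.96% of those on chromosome 7, so nothing is read from that count. Fadd, the death domain adaptor gene, was at 6.84 and 5.82, Ppfia1 at 16.1 and 15.9, and the lysosomal channel gene Tpcn2 at 6.90 and 6.68. Taking 10 genes on each side brought in 3 that passed, all lower in NOD.L7 and 1152 to 1322 kb away. These were Tnfrsf26, at 11 and listed at 0, Tnfrsf22, at 4.15 and 1.22, and Mrgpre, at 5.14 and 1.13. Of the 6 nearest genes, Dhcr7 and Nadsyn1 lay almost as far off, at 1107 and 1134 kb. The split between the windows thus rests on the number of genes taken. Ccnd1 was the 1 gene of this stretch past the rule in the upward direction. Sequence differences between the genotypes were not analysed here.

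**Figure D4:**
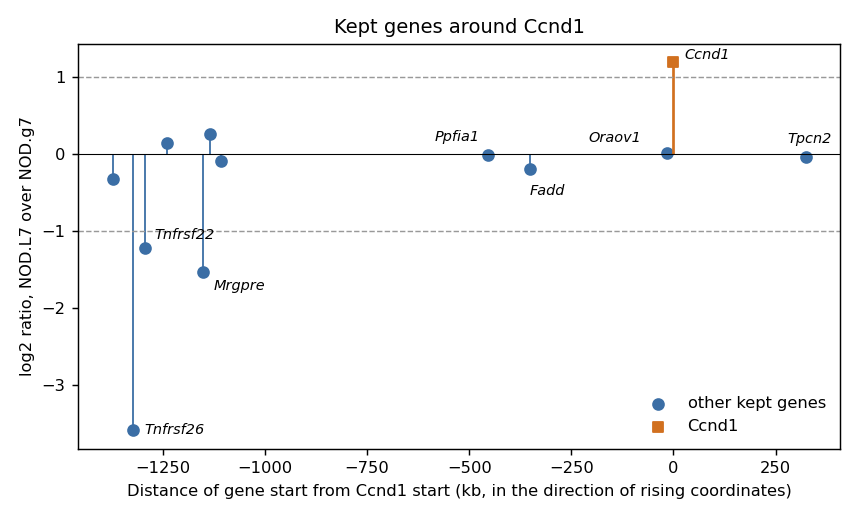
Log2 ratio (NOD.L7 over NOD.g7) of Ccnd1 (square) and of the 11 kept genes nearest to it on chromosome 7 (circles), by the distance of each gene's start from that of Ccnd1 in kb, with dashed lines at 1 and -1. Ccnd1 stands at 1.19 while Oraov1 beside it is at 0.01, and the 3 genes under -1 lie 1152 to 1322 kb away.

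Of the 10 nearest kept genes around each other member, 5 on each side (5 in all for Cdk6, which has none before it), 1 passed the rule. It was Rab44, next to Cdkn1a, at 2.19 in NOD.g7 against 5.67 in NOD.L7. No neighbour of Ccne1 was as far from 0 as Ccne1, and none of Cdk6 as far as Cdk6, while all 10 neighbours of Cdkn1b were at least as far from 0 as Cdkn1b. With 10 genes on each side Trem1, an activating receptor gene of myeloid cells 730 kb from Ccnd3, also passed, at 2.57 and 6.76. In that window 1 neighbour of Ccne1 was as far from 0 as Ccne1, and still none of Cdk6 as far as Cdk6. Some of the 5 nearest genes after Ccne1 start 7890 to 9851 kb from it.

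The 3 kept genes whose level and log2 ratio over these 2 libraries were nearest to those of Ccnd1 were Lilrb4, Siglece and Clec4n, at Euclidean distances of 0.34, 0.35 and 0.36. Their RPKM values were 13.8 and 27.1, 8.49 and 19.2, and 9.99 and 19.5. With 2 libraries, such likeness rests on a single ratio.

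Most other genes on the cell cycle lists, which reach beyond G1, were close to level between the libraries, as were most kept genes. Of 147 other genes on 10 cell cycle lists, 136 were kept, 80 of them higher in NOD.L7 and 56 lower, and the median log2 ratio was 0.03. Fos passed the size rule and was the 1 gene to do so, and 91.9% lay within 0.3 of 0, beside 90.2% of all kept genes. The lists overlap one another, and some hold members.

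Among genes whose symbol (Cdkn) names them kinase inhibitors, 5 of 8 were kept, 3 higher and 2 lower, with a median of 0.03. Cdkn2c, which blocks CDK4 and CDK6, was at 3.42 in NOD.g7 against 4.35 in NOD.L7, and Cdkn3 was at 1.59 and 1.23. Cdkn1c, Cdkn2a and Cdkn2b did not reach an RPKM of 1 in either library. The retinoblastoma family and E2F factors divided evenly, 6 higher and 6 lower of 12, with a median of 0.01. The activator E2f1 was at 2.90 and 3.94, E2f2 at 14.9 and 12.7, and the E2F partner gene Tfdp2 at 4.84 and 3.87. Rb1, the substrate of the D cyclin kinases, was at 28.9 and 28.1, a gene named after its values were seen.

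Genes that E2F switches on for S phase had a median of 0.03, with 13 of 24 higher. The helicase subunit gene Mcm2 was at 18.9 and 23.5, the flap endonuclease gene Fen1 at 15.6 and 13.9, and Mybl2 at 1.69 and 1.42. Genes of G2 and mitosis had a median of 0.05, with 11 of 17 higher. The checkpoint kinase gene Bub1b was at 2.75 and 3.43, Bub1 at 1.19 and 1.52, and the survivin gene Birc5 at 7.75 and 6.54. Mki67, a marker of cycling cells that was also named after its values were seen, was at 16.4 and 16. No gene of either list passed the size rule.

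Other cyclins (11 of 16 higher, median 0.03), other kinases of the family (4 of 14 higher, median -0.05), activators and phosphatases (7 of 10, median 0.02) and the turnover machinery (8 of 13, median 0.03) had no gene past the rule. Cdc25b, a phosphatase that activates cyclin-dependent kinases, was at 34.6 in NOD.g7 against 26.7 in NOD.L7, and its relative Cdc25a was at 6.93 and 8.22. Wee1, the kinase that opposes them, was at 2.14 and 2.79. Skp2, the ubiquitin ligase subunit that marks p27 for destruction, was at 1.29 and 1.90, and Fbxo31 was at 9.44 and 11.6. Dtl, a ubiquitin ligase adaptor, was at 1.69 and 2.05. Of the other cyclins, Ccnj was at 6.90 and 5.40, the mitotic cyclin gene Ccnb2 at 4.01 and 4.68, and Ccng1 at 40.4 and 44. Of the other kinases, Cdk19, a kinase of the Mediator complex, was at 22 and 18.2, Cdk14 at 2.20 and 2.71, and Cdk5 at 13.7 and 12.3.

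On the list of p53 target genes, which also holds the p53 gene Trp53 itself, 8 of 14 were higher, with a median of 0.07. The BH3 protein gene Pmaip1 was at 8.11 and 13, and Sesn2, a stress-induced sestrin, at 4.28 and 6.15, which with Cdkn1a were the 3 furthest from 0. None passed the rule, and Trp53, likewise named after its values were seen, was at 72.3 and 68. Of upstream regulators of D cyclins and p27, 16 of 21 were higher, with a median of 0.06. Fos and Jun, subunits of the AP-1 factor that can act on the Ccnd1 promoter, were at 15.6 and 38.1 and at 12.9 and 23. Klf2, a quiescence factor of lymphocytes, was at 156 and 118.

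**Figure D5:**
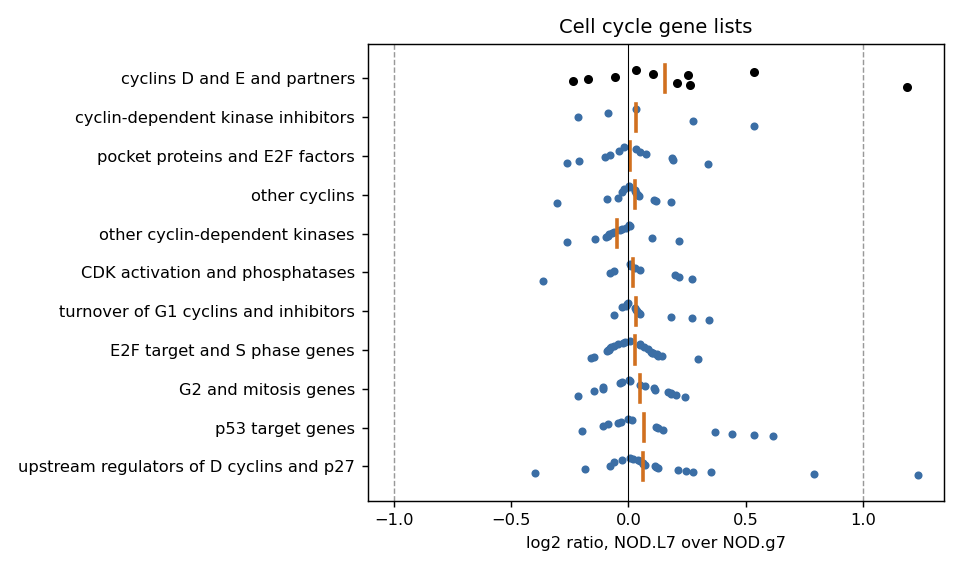
Log2 ratios (NOD.L7 over NOD.g7) of the kept genes of 10 cell cycle lists and of the 10 genes described here (top row), 1 point per gene, with a vertical bar at each median and dashed lines at 1 and -1. Medians of the lists run from -0.05 to 0.07, against 0.16 in the top row, and Ccnd1 and Fos are the points past 1.

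Markers of several spleen cell types differed between the same libraries, and their part in the differences of the cyclins was not tested. Sums given for a marker list cover all its genes with a row, kept or not, while counts and medians cover kept genes. The spleen markers were present, with the B cell list at a summed RPKM of 2542 in NOD.g7 against 2067 in NOD.L7 and the T cell list at 1153 and 1119. Monocyte and macrophage markers were higher in 12 of 12, with a median of 0.77 and a sum of 959 and 1207. In this list the rule was passed by Cd14, Cd163 and Vcam1, at 7.64 and 29.1, 5.26 and 13, and 43.8 and 91.5. Neutrophil markers were higher in 8 of 12 (median 0.19, sum 868 and 1130), with Cxcr2 at 15.6 and 37.1 the furthest from 0. The 4 lower ones had log2 ratios of -0.29 for Mpo, -0.27 for Elane, -0.17 for Camp and -0.03 for Ltf. These are granule genes, but other granule genes on the list were higher, at 0.62 for Mmp8, 0.19 for Mmp9 and 0.03 for Ngp. Germinal centre markers were higher in 8 of 8 (median 0.65, sum 53.1 and 68.1), with Mef2b at 2.29 and 5.46. Regulatory T cell markers were higher in 5 of 5 (median 0.23, sum 69.9 and 84.3).

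Erythroid markers were lower in 10 of 10 (median -1.13, sum 166 and 77.2), with Slc4a1 at 22.1 and 3.97, and NK cell markers in 7 of 7 (median -0.89, sum 166 and 75.4), with Gzma at 79.9 and 26.3. B cell markers were lower in 7 of 8 (median -0.28) and T cell markers in 7 of 10 (median -0.01). Within the T cell list, the co-receptor genes had log2 ratios of -0.74 for Cd8a, -0.57 for Cd8b1 and 0.36 for Cd4. Of the markers of stroma and endothelium, 3 of 11 were kept (median 0.09, sum 76.9 and 75.9), nearly all of the sum from Pecam1 at 72.7 and 71.2, and Madcam1 was listed at 0 in NOD.g7. Plasma cell (5 of 7 higher, median 0.09, sum 410 and 491), dendritic cell (4 of 8, median 0.18, sum 71.3 and 78.7) and megakaryocyte markers (4 of 4, median 0.19, sum 14.4 and 19.7) had no gene past the rule. No marker of any other list was at 0 in either library.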

How the data were processed

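The authors deposited 1 table of RPKM values per gene, with mm9 coordinates. CASAVA 1.8.2 and SAMtools 0.1.18 are named per the submitters' processing notes, while gene models, strandedness and the handling of multiply matched reads are not given in these sources. The column headed NOD.LC7 was inferred from the series title to hold NOD.L7, and that headed NOD to hold NOD.g7, since the sample labels do not use these names. Depth was found from single-exon genes under 2500 bases, where RPKM times length fell on whole multiples of 1 base (100% of 99 values in NOD.g7 and of 114 in NOD.L7, within 0.15). Fragments were approximated at 200 bases each from the GENCODE M21 transcript with the longest coding sequence. Genes were kept where either library reached an RPKM of 1, and 1 was added before taking logs. The members and lists were chosen with earlier results of these data known. Named genes were the members, the 3 genes furthest from 0 on each pathway list, up to 3 on a marker list, passing neighbours and the 3 genes most like Ccnd1. Some genes were named outside this rule, after their values were seen, such as Fadd, Ppfia1 and Tpcn2 near Ccnd1, the genes that overlap members and some markers. A gene that the rule allows is not reported here. Of the list symbols, 3 were matched by RefSeq synonyms and 2 were not matched. Calculations used Python 3.11.15, pandas 2.3.3, SciPy 1.17.1 and Biopython 1.88 and were tested on simulated data. As alternatives, pseudocounts of 0.1 and 0.5, a minimum RPKM of 5 or none, median centring, a TMM factor, a size rule of 0.5 and 10 neighbours on each side were tried.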

Additional observations from a re-analysis of the deposited data

How the results depend on the processing

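With 1 library per genotype no replicate could be left out, and no setting shows how values vary between mice. No paired analysis was possible because there is only 1 library of either genotype. Across pseudocounts, filters and scalings, each member kept its direction wherever it was kept, Ccnd1 ran from 1.16 to 1.25 on the log2 scale and Cdkn1a from 0.52 to 0.67, and Ccnd1 stayed the 1 member past the size rule. A size rule of 0.5 was passed by 2 members and 457 genes. Genes past the rule of 1 numbered 166 and 124 with pseudocounts of 0.1 and 0.5, and 52 at a filter of RPKM 5, against 79. The erythroid median was -1.46 and -1.28 with these pseudocounts and -1.29 at the filter, and the germinal centre median 0.91, 0.78 and 0.49. At the filter, which tests fewer genes, medians were 0.32 for neutrophils, 0.36 for dendritic cells, -0.030 for stroma (1 gene) and 0.63 for megakaryocytes (1 gene). With 10 neighbours on each side, 3 passed around Ccnd1 and 1 around Ccnd3, against 0. The log2 ratio of Cdkn1b ran from 0.01 to 0.03. At 400 bases per fragment, a setting chosen after seeing the data, 6 rather than 9 members had an interval that left out a fold of 1. Intervals were not computed for other kept genes, so these counts have no background share and nothing is read from them.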
